A study of Mus musculus with 9 samples.

Results

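Transcripts of 10 genes that mark macrophages were followed in RNA-seq libraries of nephron progenitor cells sorted from embryonic mouse kidneys: *Csf1r*, *Adgre1*, *C1qa*, *C1qb*, *C1qc*, *Tyrobp*, *Fcer1g*, *Lyz2*, *Cd68* and *Mrc1*. The genes were taken by symbol from a count table of 26858 genes. All 10 were found, and all 10 were among the 14990 genes that passed the filter on low counts.

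Macrophages settle in the kidney during embryonic life, live between the epithelium and the stroma, and clear dying cells and debris. Their growth and survival depend on the receptor CSF1R, and they are a main source of C1q, which starts the classical complement pathway. Nephron progenitors of the cap mesenchyme express the transcription factor SIX2 and belong to another lineage, so the macrophage genes are not part of their known program.

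The study inactivated *Uqcrq* (*Qpc*), which encodes a subunit of mitochondrial complex III, in SIX2 progenitors, and compared the transcriptomes of sorted progenitors with and without it. Cells were sorted by eGFP from *Six2-Qpc*+/- control kidneys (4 libraries, replicates 71, 72, 73 and 76) and *Six2-Qpc*-/- mutant kidneys (5 libraries, replicates 74, 75, 77, 78 and 79) at age E18.5 (embryonic days). All 9 libraries came from mice with a bacterial artificial chromosome transgene in which the *Six2* promoter drives a fusion of eGFP and Cre. Mutants were homozygous for a floxed *Qpc* allele. Controls were heterozygous and so also lost a *Qpc* copy in SIX2-expressing cells, which means that no library here is from cells with both copies intact. The study counts its samples of each genotype as mice. The labels do not say whether a library holds cells of 1 animal or of a pool, and p-values measure only the spread between these samples, part of which may be technical. Control libraries held 23329358, 23691130, 22571729 and 23571268 counted reads, and mutant libraries 22744068, 23986458, 21040536, 21670829 and 21774766, each in the order of the replicates above.

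*Uqcrq* was measured first as a check of the labels. It reached 94.1 ± 13.3 CPM (reads per 1000000 reads of a TMM-normalized library; SD, n = 4) in control and 21.3 ± 4.45 CPM in mutant libraries (SD, n = 5), with a log2 fold change of −2.14 (SE 0.16, adjusted p = 2.09e-05, edgeR quasi-likelihood test with Benjamini-Hochberg adjustment). The highest mutant library, replicate 75, had 28.2 CPM and the lowest control library, replicate 72, had 76.8 CPM. Of 10 nephron progenitor markers, 10 were tested and 0 passed the threshold of an adjusted p of 0.05 in edgeR. Without adjustment, 1 was higher and 1 lower at a p under 0.05, DESeq2 called 0, and limma-voom called 1 higher. Fits without single libraries called 0 to 1 of these markers higher. Their summed level was 2489 ± 229 CPM in control (SD, n = 4) and 2597 ± 223 CPM in mutant libraries (SD, n = 5), with *Six2* at means of 571 and 704 CPM, so the labelled cell type was borne out by its markers in both genotypes.

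Macrophage transcripts were rare in all libraries and higher in most mutant libraries. The 10 genes together had 65, 334, 65 and 476 reads in control replicates 71, 72, 73 and 76. In mutant replicates 74, 75, 77, 78 and 79 they had 387, 1655, 4033, 1838 and 1545 reads. The libraries of a genotype differed widely, since replicates 72 and 76 held most control reads, replicate 77 stood above all others, and replicate 74 lay among the controls. The largest total, in mutant replicate 77, was 0.0192% of the library's reads. The smallest shares, in control replicates 71 and 73, were 0.000279% and 0.000288%. As summed CPM, the control libraries had 2.77, 13, 2.74 and 20.1 and the mutant libraries 16.5, 73.3, 206, 90.4 and 70.1. The means were 9.65 ± 8.47 CPM (SD, n = 4) and 91.2 ± 69.7 CPM (SD, n = 5), a 9.45-fold difference. Mutant replicate 74 was below control replicate 76, so the sums of the genotypes overlapped. The fold was 14.8 without control replicate 76, 6.48 without mutant replicate 77 and 11.4 without mutant replicate 74. In bulk samples such as these, more macrophages among the sorted cells and more RNA per macrophage cannot be told apart. The study reports that eGFP-expressing cells were a smaller share of the cells from mutant than from control kidneys at this age. It also states that its gate may have taken in some differentiating control cells. Whether the share of other cells or of their RNA carried along in the sort differed between genotypes was not tested.

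In the edgeR test over all 14990 genes, 4 of the 10 transcripts were called higher in mutant cells at an adjusted p under 0.05, against 14.8% of all genes tested called in either direction. By direction, 7.82% of all genes were called higher and 7.02% lower, and 0 of the 10 transcripts were lower. DESeq2 and limma-voom also called 0 lower, and at an unadjusted p under 0.05 there were 10 higher and 0 lower, against 16.3% and 15.2% of all genes tested. The 10 genes were chosen with earlier results of these data known, and their levels moved together across the libraries. These counts are therefore a description and not 10 separate pieces of support. The 4 called genes were *Cd68*, *Tyrobp*, *Mrc1* and *Fcer1g*. The other 6 had adjusted p-values from 0.0535 to 0.0845. The median log2 fold change of the 10 was 3.41, and that of all genes tested was −0.01. All mutant libraries exceeded all control libraries for 3 of the 10 transcripts, *Tyrobp*, *Fcer1g* and *Cd68*, and for 7.5% of all genes tested. The count depended on single libraries. It was 8 when mutant replicate 74 was left out and 1 when mutant replicate 78 was, and it was 7 with DESeq2 and 9 with limma-voom. The number over all genes moved too, from 2225 of 14990 to 3136 of 14790, 1336 of 14850, 3213 of 26858 and 4858 of 14990 in the same order. The 26858 are the genes given to DESeq2, whose own filter can leave fewer with an adjusted p, so its share is not comparable with the others. Only *Cd68* was called in all 15 of its alternatives.

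**Figure D1:**
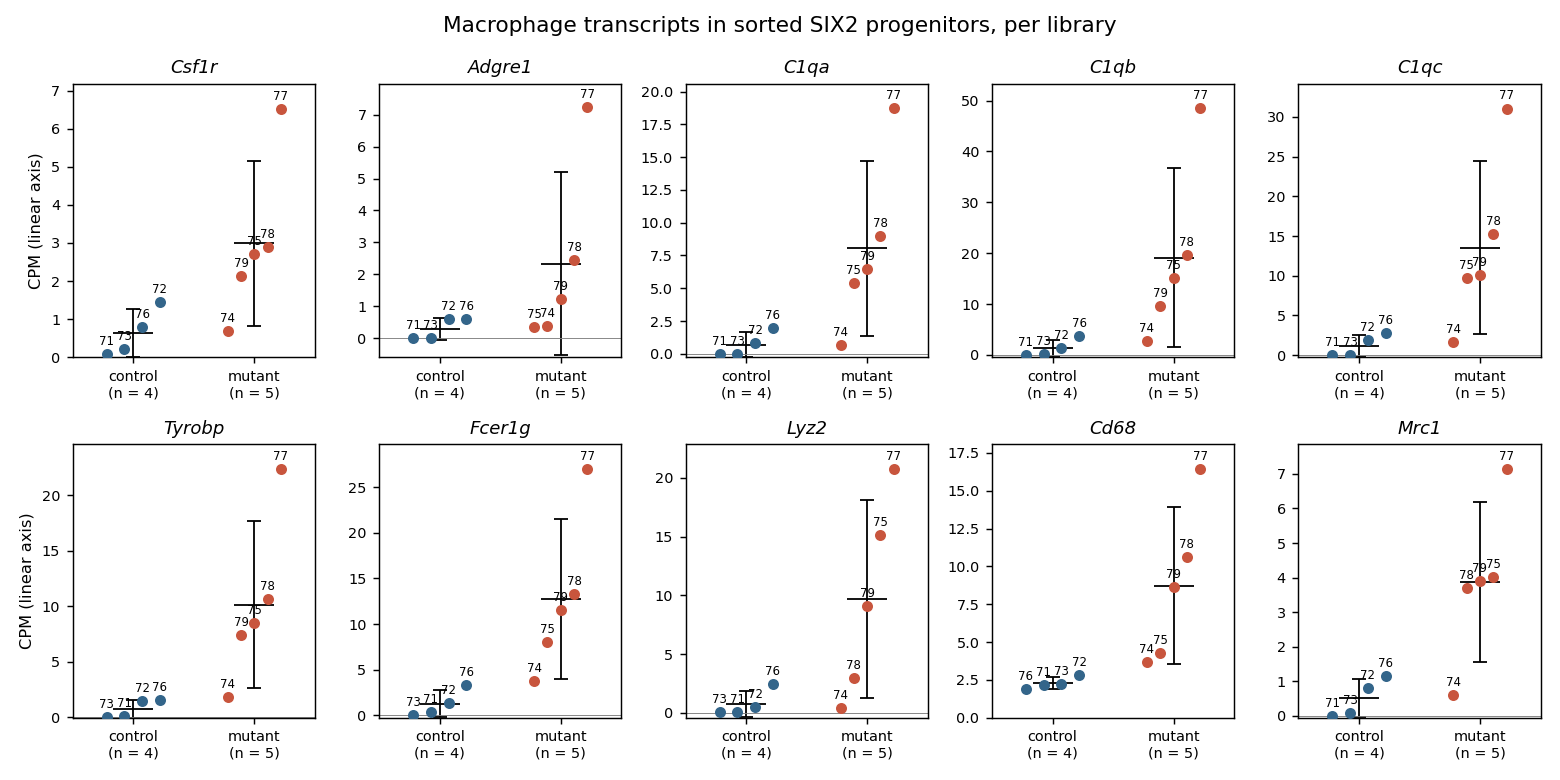
Level of each of the 10 macrophage transcripts in CPM (linear axes, a separate scale for each gene) in 4 control and 5 mutant libraries. Points are libraries labelled by replicate number, and black bars give the mean and SD. Mutant replicate 77 was highest for all 10 genes, and mutant replicate 74 lay at or near the control range.

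Among the cell surface receptors, *Csf1r* encodes the receptor for the growth factors CSF1 and IL34. It had 2, 37, 5 and 19 reads in control replicates 71, 72, 73 and 76. It had 16, 61, 128, 59 and 47 reads in mutant replicates 74, 75, 77, 78 and 79. Control replicate 72 exceeded mutant replicate 74, so the genotypes overlapped, although the other 4 mutant libraries were above all controls. The mean level was 0.635 ± 0.622 CPM in control (SD, n = 4) and 2.99 ± 2.16 CPM in mutant libraries (SD, n = 5). The log2 fold change of 2.21 (SE 0.72) did not pass the edgeR threshold, with an adjusted p of 0.0535. It passed with DESeq2 (adjusted p = 0.00581) and limma-voom (0.00678), without control replicate 72 (0.0341) and without mutant replicate 74 (0.0184), and its adjusted p ranged from 0.00581 to 0.14 over all alternatives. *Csf1r* (ENSMUSG00000024621, chromosome 18, 61105572 to 61132149) overlaps *Hmgxb3* on the opposite strand over 871 bases. The libraries carry no strand information, so reads there could not be assigned to either gene, and *Hmgxb3* had between 192 and 394 reads per library.

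*Adgre1* encodes F4/80, the adhesion receptor used to label mouse macrophages. Its reads numbered 0, 15, 0 and 14 in control replicates 71, 72, 73 and 76, and 9, 8, 142, 50 and 27 in mutant replicates 74, 75, 77, 78 and 79. Only mutant replicates 77, 78 and 79 were above the controls, while replicates 74 and 75 lay below control replicates 72 and 76. A count of 0 has an exact 95% upper limit of 3.69 reads. The means were 0.294 ± 0.339 CPM (SD, n = 4) and 2.33 ± 2.88 CPM (SD, n = 5), with a log2 fold change of 2.95 (SE 1.09, adjusted p = 0.0845, edgeR) that did not pass. It passed only with limma-voom (4.79, adjusted p = 0.0207). With single libraries left out the log2 fold change lay between 1.87 (without mutant replicate 77) and 3.52 (without control replicate 72 or 76). *Adgre1* lies on chromosome 17, from 57358686 to 57483529 (ENSMUSG00000004730).

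*Mrc1* encodes the mannose receptor CD206, which takes up glycoproteins and is found on many tissue macrophages. It had 0, 21, 2 and 27 reads in control replicates 71, 72, 73 and 76, and 14, 91, 140, 75 and 86 in mutant replicates 74, 75, 77, 78 and 79. Mutant replicate 74 lay below control replicates 72 and 76, and the other mutant libraries were above all controls. *Mrc1* rose from 0.51 ± 0.557 CPM (SD, n = 4) to 3.87 ± 2.32 CPM (SD, n = 5), a log2 fold change of 2.90 (SE 0.85, adjusted p = 0.0381, edgeR). The call was lost without control replicate 71, 72 or 73 and without mutant replicate 75, 77, 78 or 79, with adjusted p-values from 0.056 to 0.099 in these fits. It was also lost with no filter on low counts (adjusted p = 0.163), and over all alternatives the adjusted p ranged from 0.00473 to 0.163. *Mrc1* (ENSMUSG00000026712) lies on chromosome 2, from 14229414 to 14332057.

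The C1q subunits are encoded by *C1qa*, *C1qc* and *C1qb*, which lie side by side on chromosome 4 in the same direction and whose chains assemble into a single protein. *C1qa* (ENSMUSG00000036887) spans 136895917 to 136898803, *C1qc* (ENSMUSG00000036896) 136889804 to 136893065 and *C1qb* (ENSMUSG00000036905) 136880129 to 136886187, with gaps of 2851 and 3616 bases between them. *C1qa* had 0, 22, 0 and 47 reads in control replicates 71, 72, 73 and 76 and 16, 122, 367, 182 and 142 in mutant replicates 74, 75, 77, 78 and 79. *C1qb* had 1, 34, 2 and 86 reads in the control and 66, 342, 950, 398 and 211 in the mutant libraries. *C1qc* had 0, 48, 0 and 65 reads in the control and 38, 220, 609, 311 and 222 in the mutant libraries. For all 3 subunits, control replicates 71 and 73 had almost no reads, mutant replicate 77 had the most, and mutant replicate 74 lay below control replicate 76. The fitted log2 fold changes were 3.49 (SE 1.21) for *C1qa*, 3.90 (SE 1.16) for *C1qb* and 3.54 (SE 1.20) for *C1qc*. None of the 3 passed the edgeR threshold, with adjusted p-values of 0.0842, 0.0551 and 0.0803. *C1qa* passed with limma-voom (0.0234) and without mutant replicate 74 (0.0474). *C1qb* passed with DESeq2 (0.00944), with limma-voom (0.0215), without control replicate 76 (0.0382) and without mutant replicate 74 (0.0419). The adjusted p over all alternatives ranged from 0.0234 to 0.199 for *C1qa* and from 0.00944 to 0.151 for *C1qb*. *C1qc* was called only with limma-voom (0.0279), and its adjusted p ranged up to 0.185.

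Levels of the 3 subunits were then set against each other per kilobase of gene length within each library that held over 100 C1q reads. In mutant replicates 74, 75, 77, 78 and 79, *C1qb* made up 56.4%, 51.2%, 50.4%, 45.8% and 37.7% of the summed C1q level. *C1qc* made up 29.4%, 29.8%, 29.2%, 32.3% and 35.8%, and *C1qa* 14.3%, 19.1%, 20.4%, 21.9% and 26.5%. The order *C1qb*, *C1qc*, *C1qa* thus held in all 5 mutant libraries, and replicate 79 had the most even shares. Control replicate 76 had the same order (44.3%, 30.3% and 25.4%). In control replicate 72, with 104 C1q reads, *C1qc* came first at 43.2% and *C1qb* was at 33.9%.

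*Tyrobp* and *Fcer1g* encode small membrane adaptors whose cytoplasmic motifs carry the signals of many myeloid receptors, including activating Fc receptors in the case of FCER1G. *Tyrobp* had 3, 37, 1 and 36 reads in control replicates 71, 72, 73 and 76, and 44, 191, 438, 217 and 164 in mutant replicates 74, 75, 77, 78 and 79. All 5 mutant libraries exceeded all controls, with replicate 74 (1.88 CPM) close to control replicate 76 (1.52 CPM). *Tyrobp* rose from 0.782 ± 0.807 CPM (SD, n = 4) to 10.2 ± 7.54 CPM (SD, n = 5), a log2 fold change of 3.68 (SE 0.90, adjusted p = 0.0234, edgeR). The call was lost without control replicate 72 (adjusted p = 0.0576), without mutant replicate 78 (0.0527) and with no filter on low counts (0.0941). Over all alternatives the adjusted p ranged from 0.00295 to 0.0941. *Tyrobp* (ENSMUSG00000030579, chromosome 7, 30413788 to 30417577) lies 139 bases from *Hcst*, which encodes another such adaptor and had at most 4 reads in any library.

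*Fcer1g* had 7, 35, 0 and 79 reads in control replicates 71, 72, 73 and 76, and 88, 181, 530, 270 and 254 in mutant replicates 74, 75, 77, 78 and 79. The genotypes did not overlap, but mutant replicate 74 (3.75 CPM) was near control replicate 76 (3.33 CPM). *Fcer1g* rose from 1.25 ± 1.51 CPM (SD, n = 4) to 12.7 ± 8.79 CPM (SD, n = 5), a log2 fold change of 3.34 (SE 0.96, adjusted p = 0.0471, edgeR). The call was lost without control replicate 71 or 72 or mutant replicate 75, 77, 78 or 79, with adjusted p-values from 0.0677 to 0.136 in these fits. It was also lost with upper-quartile normalization (0.0503) and with no filter (0.131), and the range over all alternatives was 0.00671 to 0.136. *Fcer1g* (ENSMUSG00000058715) lies on chromosome 1, from 171229572 to 171234365.

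Among the lysosomal and secreted proteins, *Lyz2* encodes the lysozyme of myeloid cells, which cleaves bacterial cell walls. It had 2, 12, 2 and 58 reads in control replicates 71, 72, 73 and 76. It had 10, 342, 407, 60 and 201 reads in mutant replicates 74, 75, 77, 78 and 79. Mutant replicates 75, 77 and 79 stood high, whereas replicate 78 was close to control replicate 76 and replicate 74 was below control replicate 72. The means were 0.771 ± 1.13 CPM (SD, n = 4) and 9.68 ± 8.42 CPM (SD, n = 5), with a log2 fold change of 3.64 (SE 1.24) that did not pass (adjusted p = 0.0806, edgeR). It passed without control replicate 76 (adjusted p = 0.0361, log2 fold change 5.46), without mutant replicate 74 (0.0368) and with DESeq2 (0.0187). Over all alternatives the adjusted p ranged from 0.0187 to 0.21. The reads of *Lyz2* (chromosome 10, 117277334 to 117282274) are uncertain with respect to its paralog *Lyz1*, since the longest coding transcripts of the pair are 96.0% identical over 1262 aligned bases. *Lyz1* had between 0 and 6 reads per library.

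*Cd68* encodes a heavily glycosylated protein of lysosomes and endosomes. It had 50, 73, 53 and 45 reads in control replicates 71, 72, 73 and 76, and 86, 97, 322, 216 and 191 in mutant replicates 74, 75, 77, 78 and 79. All mutant libraries were above all control libraries, and the 4 control libraries lay close together, unlike those of the other 9 transcripts. *Cd68* rose from 2.28 ± 0.403 CPM (SD, n = 4) to 8.73 ± 5.20 CPM (SD, n = 5), a log2 fold change of 1.93 (SE 0.41, adjusted p = 0.00874, edgeR). This was the smallest fitted change and the smallest adjusted p of the 10, and the adjusted p ranged from 1.33e-05 to 0.0336 over all alternatives. *Cd68* (ENSMUSG00000018774, chromosome 11, 69664213 to 69666153) lies between *Mpdu1*, 1570 bases away, and *Eif4a1*, 782 bases away, all in the same direction. *Eif4a1*, an RNA helicase gene of translation initiation, was far more abundant, with 25398 to 39485 reads per library. Per 1000 reads on *Eif4a1* there were 1.81, 2.87, 2.03 and 1.38 reads on *Cd68* in the control libraries and 3.15, 2.46, 10.5, 6.38 and 6.88 in the mutant libraries. Whether any reads on *Cd68* came from *Eif4a1* was not tested.

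Per kilobase of gene length, the 10 transcripts fell into an upper and a lower group in mutant libraries. *Fcer1g*, *Tyrobp* and *C1qb* had mean levels of 18.9 ± 13, 18.0 ± 13.4 and 17.6 ± 16.1 CPM per kilobase (SD, n = 5). *C1qc* followed at 11.3 ± 9.09, *C1qa* at 7.73 ± 6.42, *Lyz2* at 7.65 ± 6.65 and *Cd68* at 7.10 ± 4.23 CPM per kilobase. The receptors were lowest, *Mrc1* at 0.723 ± 0.433, *Adgre1* at 0.719 ± 0.886 and *Csf1r* at 0.636 ± 0.46 CPM per kilobase. Neighbours in this order within each group differed by less than the SD between libraries, but in each of the 5 mutant libraries all 3 receptors were below the other 7 transcripts per kilobase. In reads this did not hold in every library, since mutant replicate 74 had 16 reads on *Csf1r* and 14 on *Mrc1* but 10 on *Lyz2*. Whether reads were spread evenly along the transcripts was not tested. In control libraries *Fcer1g* (1.85 ± 2.24) and *Cd68* (1.85 ± 0.327) led, and *Csf1r* (0.135 ± 0.132), *Mrc1* (0.0953 ± 0.104) and *Adgre1* (0.0905 ± 0.105 CPM per kilobase; SD, n = 4) were again lowest.

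**Figure D2:**
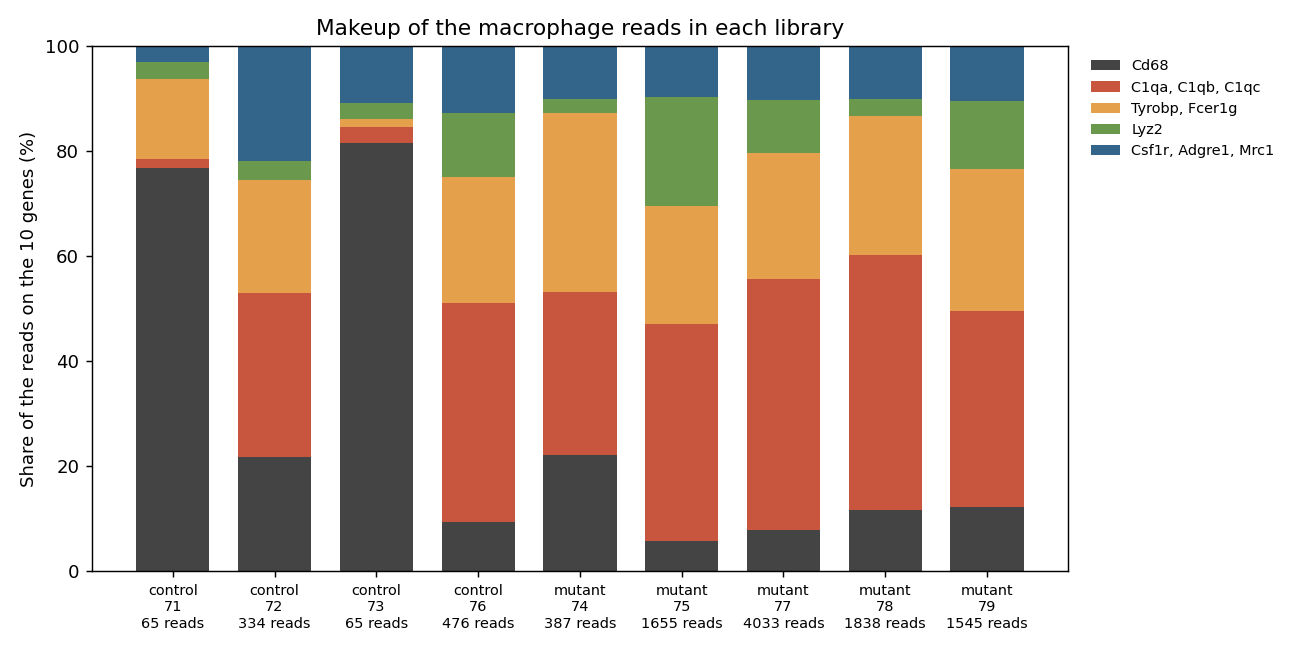
Share of the reads on the 10 macrophage genes (%, vertical axis) taken by *Cd68*, by the 3 C1q genes, by *Tyrobp* and *Fcer1g*, by *Lyz2*, and by *Csf1r*, *Adgre1* and *Mrc1* in each of the 9 libraries, whose total of such reads stands under its name. *Cd68* took 76.9% and 81.5% in control replicates 71 and 73, and between 5.86% and 22.2% in the mutant libraries.

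The makeup of the macrophage reads was compared between libraries. *Cd68* held 76.9% of them in control replicate 71 (exact binomial 95% interval 64.8 to 86.5%) and 81.5% in control replicate 73 (70.0 to 90.1%). These 2 libraries had 15 and 12 reads on the other 9 genes together. In the other libraries *Cd68* held between 5.86% (mutant replicate 75) and 22.2% (mutant replicate 74). Such intervals cover counting error only, because reads from amplified cDNA without molecular identifiers are not independent molecules. When *Cd68* was left out of the sum, a choice made after seeing the data, the control libraries had 0.639, 10.2, 0.506 and 18.2 CPM and the mutant libraries 12.8, 69.0, 189, 79.8 and 61.4. The fold between the means was then 11.2, and mutant replicate 74 was again below control replicate 76.

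The C1q genes together held 31.1% and 41.6% of the macrophage reads in control replicates 72 and 76, and 31.0%, 41.3%, 47.8%, 48.5% and 37.2% in mutant replicates 74, 75, 77, 78 and 79. *Tyrobp* held from 10.6% to 11.8% in mutant libraries and *Csf1r* from 3.04% to 4.13%. The share of *Lyz2* ranged widely, at 2.58% (1.25 to 4.70%), 20.7% (18.7 to 22.7%), 10.1% (9.18 to 11.1%), 3.26% (2.50 to 4.18%) and 13% (11.4 to 14.8%; exact binomial 95% intervals) in replicates 74, 75, 77, 78 and 79. The libraries with most macrophage reads were thus not all rich in *Lyz2*: replicate 78, second in macrophage reads, was low in it. Across the 9 libraries, log2(CPM + 0.5) of each transcript was correlated with log2 of the summed CPM of the 10, of which each is a part. Pearson's r was highest for *C1qc* (0.997), *Tyrobp* (0.994) and *C1qb* (0.993) and lowest for *Lyz2* (0.912), *Cd68* (0.858) and *Adgre1* (0.857; n = 9 libraries).

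Other genes known from resident macrophages were examined as a list of 20, of which 14 were tested. In edgeR, 4 were called higher and 1 lower, with a median log2 fold change of 2.32 against −0.01 for all genes tested. Beside this list and those below, 7.82% of all genes tested were called higher and 7.02% lower. At an unadjusted p under 0.05 the shares were 16.3% and 15.2%. In either direction, limma-voom called 4858 of 14990 genes, DESeq2 called 3213, and fits without single libraries called 1046 to 3136. A list count near these shares is not a result about the list. Summed levels were 48.1, 59.5, 31.8 and 71.3 CPM in control replicates 71, 72, 73 and 76 and 84.5, 148, 215, 192 and 119 CPM in mutant replicates 74, 75, 77, 78 and 79. The most abundant was *Maf*, a transcription factor gene that is not restricted to macrophages, with means of 34.9 and 79.4 CPM. *Maf* rose by a log2 fold change of 1.19 (adjusted p = 0.00521) and *Stab1*, a scavenger receptor gene, by 2.82 (adjusted p = 0.000733). *Lyve1*, a hyaluronan receptor gene shared by lymphatic endothelium and some macrophages, had 0, 1, 2 and 0 reads in control and 27, 49, 14, 19 and 5 in mutant libraries (adjusted p = 0.00471). *Lyve1* had enough reads for the filter on low counts only in mutant libraries. Among the fits without a mutant library, it was tested only in the one without replicate 79. Whether its call depends on another mutant library was therefore not tested. *Aif1* rose by 2.87 (adjusted p = 0.0421), a call lost with no filter on low counts and when any library except mutant replicate 74 was left out. At an unadjusted p under 0.05, 9 were higher and 1 lower, DESeq2 called 4 higher and 1 lower, and limma-voom 10 higher and 1 lower. Leaving out single libraries gave between 2 and 5 genes called higher.

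*Cd163*, the haemoglobin scavenger receptor gene, was the gene called lower. It had 54, 90, 52 and 60 reads in control and 26, 27, 32, 29 and 34 in mutant libraries, and the log2 fold change was −0.93 (SE 0.29, adjusted p = 0.0485, edgeR). No mutant library reached the lowest control, but the call was lost when any 1 of the 9 libraries was left out, with RLE normalization (0.0510) and with no filter (0.115), and the adjusted p ranged from 0.0247 to 0.17 over all alternatives. *Cd209f* had at most 3 reads in every library.

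Of 9 myeloid transcription factor genes, 7 were tested and 2 were called higher, against 7.82% of all genes tested. Their median log2 fold change was 0.59. DESeq2 called 3 higher, limma-voom 2, and fits without single libraries 1 to 2, all with 0 lower. *Spi1*, which encodes PU.1, the factor that directs macrophage development, had 0, 13, 0 and 17 reads in control and 21, 73, 131, 124 and 76 in mutant libraries. Every mutant library was above every control, with a log2 fold change of 3.70 (SE 0.87, adjusted p = 0.0151, edgeR), and the call was lost only with no filter on low counts (0.0855). *Cebpb* rose by 0.89 (SE 0.25, adjusted p = 0.0331), with the call lost when any 1 of the 4 control libraries, or mutant replicate 75 or 78, was left out. The summed level was 53.7, 67.6, 50.6 and 42.4 CPM in control and 86.9, 57.0, 64.3, 86.6 and 58.6 CPM in mutant libraries, in an order unlike that of the 10 macrophage transcripts.

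Genes shared by leukocytes in general were represented by 10, of which 8 were tested and 4 called higher, with a median log2 fold change of 2.87. The sums were 11.2, 14.3, 11.4 and 13 CPM in control and 14.5, 36.4, 71, 34.6 and 37.2 CPM in mutant libraries. Mutant replicate 77 was again highest and replicate 74 was close to the controls. *Arhgdib*, the most abundant, rose from 4.66 ± 1.02 to 13 ± 5.14 CPM (SD; log2 fold change 1.48, adjusted p = 0.00888). *Lcp1*, an actin-bundling protein gene, rose by 3.36 (adjusted p = 0.0257) and *Cd52* by 3.13 (adjusted p = 0.0153). *Cd48* had 0, 3, 0 and 0 reads in control and 5, 16, 25, 11 and 39 in mutant libraries (adjusted p = 0.00825). The *Lcp1* call was lost without control replicate 71, 72 or 73 or mutant replicate 78 and with no filter on low counts, and the *Cd52* call without control replicate 73. *Cd48* and *Cd52* had enough reads for that filter only in mutant libraries. Among the fits without a mutant library, both were tested only in the one without replicate 74. Whether their calls depend on another mutant library was therefore not tested. DESeq2 called 7 higher and limma-voom 6, 8 were higher at an unadjusted p under 0.05, and leaving out single libraries gave between 1 and 8.

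Receptors and kinases that work with the TYROBP and FCER1G adaptors numbered 13, of which 5 were tested and 2 called higher, with a median log2 fold change of 2.27. At an unadjusted p under 0.05, 3 were higher and 1 lower, and DESeq2 and limma-voom each called 4 higher and 1 lower. Leaving out single libraries gave between 1 and 5 genes called higher and between 0 and 1 called lower. *Fcgr1*, the high-affinity IgG receptor gene, had 1, 7, 0 and 3 reads in control and 9, 49, 39, 35 and 60 in mutant libraries (log2 fold change 3.93, SE 0.76, adjusted p = 0.00577). *Fcgr1* had enough reads for the filter on low counts only in mutant libraries, and was called in all 10 alternatives in which it was tested. Among the fits without a mutant library, it was tested only in the one without replicate 74. It was also not tested with at least 10 counts in every library. Whether its call depends on any other mutant library was therefore not tested. The most abundant gene in mutant libraries, *Fcgr3*, had 0, 48, 0 and 15 reads in control and 59, 182, 606, 189 and 83 in mutant libraries, and its log2 fold change of 4.09 did not pass (adjusted p = 0.0535), but did with DESeq2 (0.0301), with limma-voom (0.0171), without control replicate 72 (0.0495) and without mutant replicate 74 (0.0498). In control the most abundant was *Syk*, a kinase gene, with 150, 263, 238 and 86 reads in control and 70, 28, 78, 32 and 137 in mutant libraries (log2 fold change −1.24, SE 0.44, adjusted p = 0.0706), which passed with DESeq2 (0.0231), with limma-voom (0.00731), without control replicate 76 (0.0404) and without mutant replicate 79 (0.0283). The list summed to 7.84, 15.5, 11.0 and 5.44 CPM in control and 9.76, 16.6, 45.2, 18.1 and 18.1 CPM in mutant libraries, with overlap. *Clec5a* and *Clec7a* had at most 3 reads in every library.

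Ligands that act on macrophages were also counted, since progenitors and stroma can produce them. Of 7 genes, 5 were tested and 0 called in edgeR. At an unadjusted p under 0.05, 2 were higher and 0 lower, DESeq2 called 0, and limma-voom called 1 higher (*Ccl7*, adjusted p = 0.0460) and 1 lower (*Csf1*, 0.0243). Fits without single libraries called 0 to 1 higher. *Csf1*, which encodes the main CSF1R ligand, had 81, 143, 129 and 74 reads in control and 85, 106, 45, 16 and 52 in mutant libraries (log2 fold change −0.67, SE 0.40, adjusted p = 0.277). The genotypes overlapped. *Ccl2*, which encodes a chemokine that attracts monocytes, had 32, 5, 2 and 18 reads in control and 8, 102, 12, 450 and 8 in mutant libraries. *Ccl7* had 21, 1, 0 and 32 reads in control and 42, 170, 18, 304 and 25 in mutant libraries. Both chemokine genes were high in mutant replicates 75 and 78 and not in replicate 77, and neither passed in edgeR (adjusted p = 0.172 and 0.103). The summed level, led by *Cxcl12* with 124 and 116 CPM, was 120.5, 162, 128 and 111 CPM in control and 132, 193, 106, 115.2 and 115.0 CPM in mutant libraries. The part of these ligands in the difference in macrophage transcripts was not tested.

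Complement components and regulators other than C1q numbered 15, of which 14 were found by symbol and 12 tested. In edgeR 2 were called higher, against 7.82% of all genes tested, with a median log2 fold change of 0.60. At an unadjusted p under 0.05, 3 were higher and 1 lower, DESeq2 called 2 higher, and limma-voom 4 higher and 1 lower. Fits without single libraries called 1 to 2 higher. *C3ar1*, the receptor gene for the complement fragment C3a, had 1, 6, 0 and 22 reads in control and 20, 47, 78, 47 and 86 in mutant libraries (log2 fold change 3.10, adjusted p = 0.0232). The *C3ar1* call was lost without control replicate 71, 72 or 73 and with no filter. The list summed to 154, 147, 139 and 165 CPM in control and 253, 483, 205, 201 and 220 CPM in mutant libraries.

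Of 5 genes of antigen presentation tested, 1 was called lower and 0 higher, against 7.02% and 7.82% of all genes tested. Their median log2 fold change was −0.05. At an unadjusted p under 0.05, 0 were higher and 2 lower, DESeq2 called 0 higher and 1 lower, and limma-voom called 0 higher and 2 lower. Fits without single libraries called 1 to 2 lower. *H2-Ab1*, a class II histocompatibility gene and the most abundant, fell from 89.7 to 50.2 CPM (log2 fold change −0.84, SE 0.14, adjusted p = 0.00287). Its reads, 1869, 2221, 2595 and 1979 in control and 1014, 1098, 873, 1271 and 1149 in mutant libraries, exceeded those of any macrophage transcript in every control library. The sums were 122, 132, 175 and 137 CPM in control and 86.0, 91.3, 92.3, 148 and 93.7 CPM in mutant libraries. Mutant replicate 78 thus lay within the range of the control sums.

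Markers of other blood cells had low sums in all libraries. The erythroid sums of control replicates 71 and 73 (2.77 and 3.16 CPM) were no lower than those of the 10 macrophage transcripts (2.77 and 2.74 CPM). Of 10 neutrophil and monocyte genes, 8 were found by symbol, 0 passed the filter on low counts, DESeq2, which has a filter of its own, called 1 higher, and *Ly6c2*, *Mpo*, *Ngp* and *Retnlg* had at most 3 reads in every library. They summed to 0.256, 0.117, 0.253 and 0.464 CPM in control and 0.682, 1.99, 1.17, 0.197 and 0.181 CPM in mutant libraries. The most abundant in mutant libraries was *Ccr2*, the receptor gene of inflammatory monocytes, with 1, 1, 1 and 0 reads in control and 3, 38, 19, 0 and 0 in mutant libraries. Mutant replicates 75 and 77, which held these *Ccr2* reads, were also those with most *Lyz2* reads, whereas replicate 79 had 201 *Lyz2* reads and 0 on *Ccr2*. Of 8 lymphoid genes, 7 were found, 1 was tested and 0 called, with 0 at an unadjusted p under 0.05 and 0 called by DESeq2 or limma-voom. *Cd3e* and *Cd3g* had at most 3 reads in every library, and the most abundant, *Cd79a*, had 0.608 and 0.736 CPM. Lymphoid sums were 0.639, 1.56, 0.801 and 1.14 CPM in control and 0.938, 1.02, 0.816, 1.13 and 2.13 CPM in mutant libraries.

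Of 5 mast cell genes, 3 were found and 0 passed the filter, DESeq2 called 1 lower, and *Cpa3* and *Fcer1a* had at most 3 reads in every library. Fits without single libraries called 0 to 1 mast cell genes lower. *Ms4a2*, the high-affinity IgE receptor beta chain gene, ran against the macrophage transcripts, with 19, 15, 29 and 7 reads in control and 0, 1, 1, 0 and 0 in mutant libraries. The mast cell genes summed to 0.852, 0.584, 1.22 and 0.338 CPM in control and 0.128, 0.0886, 0.051, 0 and 0.0907 CPM in mutant libraries. Of 8 erythroid genes, 2 were tested and 0 called in edgeR, DESeq2 or limma-voom, with 0 higher and 1 lower at an unadjusted p under 0.05. *Hbb-bt* and *Hba-a2* had at most 3 reads in every library, and *Alas2* was the most abundant at 1.57 and 1.37 CPM. Erythroid sums were 2.77, 3.43, 3.16 and 2.07 CPM in control and 2.26, 2.39, 2.86, 1.77 and 2.81 CPM in mutant libraries.

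Other kidney cell types that a sort could carry along were counted in the same way. Of 10 endothelial genes, 7 were tested, 1 was called higher (*Pecam1*, log2 fold change 2.42, adjusted p = 0.0469) and 2 lower (*Cldn5*, −2.04, adjusted p = 0.00831, and *Plvap*, −1.88, adjusted p = 0.00121), with a median log2 fold change of 0.18. DESeq2 called 2 higher and 2 lower, limma-voom 1 higher and 2 lower, and fits without single libraries 0 to 1 higher and 2 lower. *Pecam1*, which many leukocytes also express, had 8, 7, 0 and 9 reads in control and 45, 9, 57, 19 and 14 in mutant libraries, and its call was lost when any 1 of the 4 control libraries was left out. Among the fits without a mutant library, *Pecam1* was tested only in the one without replicate 75. Endothelial sums, led by *Plvap* with 17.7 and 4.83 CPM, were 37.2, 24.4, 37.6 and 30.0 CPM in control and 20.0, 11.8, 17.8, 12.4 and 10.1 CPM in mutant libraries. The sum was thus lower in every mutant library than in every control library, but in control it rests mostly on *Plvap* and *Cldn5*. *Cdh5*, which was not tested in edgeR, had 0, 0, 0 and 1 reads in control and 17, 5, 5, 2 and 4 in mutant libraries. Of 8 ureteric bud genes, 4 were tested and 0 called in edgeR. At an unadjusted p under 0.05, 1 was higher and 2 lower, DESeq2 called 2 lower, and limma-voom called 3 lower. With single libraries left out, edgeR called between 0 and 2 ureteric bud genes lower and 0 higher. Their sums, led by *Hoxb7* at 40.5 and 29.3 CPM, were 65.5, 54.3, 60.8 and 48.5 CPM in control and 51.3, 44.4, 44.6, 28.3 and 39.2 CPM in mutant libraries.

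Of 9 stromal genes, 8 were tested, 4 did not pass and 4 were called higher: *Pdgfra* (log2 fold change 3.66, adjusted p = 0.00623), *Col3a1* (2.44, adjusted p = 0.0219), *Col1a1* (1.89, adjusted p = 0.00334) and *Foxd1* (0.58, adjusted p = 0.0121). At an unadjusted p under 0.05, 6 were higher, DESeq2 called 6 higher, limma-voom 6 higher and 1 lower, and fits without single libraries 2 to 6 higher. The *Col3a1* call was lost without control replicate 72 or 73 and with no filter on low counts, and the *Foxd1* call without control replicate 73. *Col3a1* was the most abundant in mutant libraries (83.1 CPM, against 15.3 CPM in control) and *Foxd1* in control (29.9 CPM). The sums were 134, 122, 107 and 193 CPM in control and 429, 616, 232, 266 and 326 CPM in mutant libraries. Stromal sums were above all controls in every mutant library, yet their order differed from that of the macrophage transcripts: mutant replicate 77 was lowest among the mutants and replicate 74 was next to the highest. The part of stromal cells, or of the sort, in the difference in macrophage transcripts was not tested.

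The genes most like the 10 macrophage transcripts were sought among all genes tested, by Pearson's r between log2(CPM + 0.5) and log2 of the summed macrophage CPM over 9 libraries. The libraries share their depth and genotype with both measures, so r is a description only. The highest values were those of *Ctss* (0.993), which encodes the lysosomal protease cathepsin S, *Spi1* (0.981), *Rac2* (0.977), a small GTPase gene of blood cells, and *Srgn* (0.976), which encodes the granule proteoglycan serglycin. *Ctss* had 0, 33, 1 and 73 reads in control and 36, 155, 599, 241 and 195 in mutant libraries, in almost the same order as the sum of the 10. *Rac2* had 0, 16, 0 and 23 reads in control and 52, 88, 140, 104 and 88 in mutant libraries. The remaining 6 of the top 10 were *Fam13c* (0.971), *C5ar1* (0.968), *Vcpkmt* (0.968), *Casc4* (0.967), *Kbtbd2* (0.964) and *Fbxo30* (0.963). *C5ar1* encodes the receptor for the complement fragment C5a on myeloid cells, with 0, 39, 0 and 105 reads in control and 24, 159, 231, 189 and 104 in mutant libraries. The other 5 had reads in every library, and their fitted log2 fold changes lay between 0.46 and 0.69.

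Promoter sequences are shown because *Spi1* and the macrophage transcripts moved together across the libraries, and PU.1 is known to bind purine-rich DNA with the core GAGGAA. The 250 bases before the RefSeq start were searched for GAGGAA on both strands (TTCCTC on the printed strand for the opposite one), and no other motif was searched. Of the 10 genes, 6 were found by symbol, and 4 of these held a match, whereas 23.3% of the 32851 promoters of the same length held it. Sequences are from RefSeq (build GRCm38.p6), read 5′ to 3′ on the strand of the gene, with matches in capitals, and only bases before both the RefSeq start and the annotated start of the gene are printed. The window of *C1qb* (chr4:136886201-136886450, minus strand) and that of *Cd68* (chr11:69666171-69666420, minus strand) had 1 match each, *C1qc* (chr4:136893066-136893164, minus strand) had 1 and *Mrc1* (chr2:14229164-14229391, plus strand) had 3. *Fcer1g* and *Lyz2* had 0. A match is a description of the sequence and not evidence of binding.
C1qb: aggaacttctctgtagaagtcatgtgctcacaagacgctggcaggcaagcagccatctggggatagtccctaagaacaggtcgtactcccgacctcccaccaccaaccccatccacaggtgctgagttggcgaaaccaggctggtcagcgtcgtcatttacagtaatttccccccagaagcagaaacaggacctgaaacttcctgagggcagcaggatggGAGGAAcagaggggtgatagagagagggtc
C1qc: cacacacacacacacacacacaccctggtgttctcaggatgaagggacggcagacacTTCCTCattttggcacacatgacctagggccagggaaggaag
Cd68: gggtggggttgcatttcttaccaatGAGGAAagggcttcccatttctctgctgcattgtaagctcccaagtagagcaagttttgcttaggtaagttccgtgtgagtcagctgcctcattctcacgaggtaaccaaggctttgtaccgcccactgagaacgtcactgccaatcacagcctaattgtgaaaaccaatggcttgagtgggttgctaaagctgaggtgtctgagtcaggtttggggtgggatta
Mrc1: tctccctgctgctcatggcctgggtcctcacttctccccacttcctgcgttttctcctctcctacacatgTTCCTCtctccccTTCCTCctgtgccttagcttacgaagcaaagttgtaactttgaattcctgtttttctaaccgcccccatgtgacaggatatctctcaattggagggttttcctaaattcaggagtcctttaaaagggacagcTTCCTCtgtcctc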

How the data were processed

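The authors sorted eGFP-expressing cells from control and mutant kidneys, and per the labels cDNA was amplified from low-input RNA, poly(A) selected and sequenced without strand information. The submitters' processing notes name STAR, DESeq2 and build mm10; the read counter, its settings and tool versions are not given in the sources used here. The authors' table holds counts of reads per gene for each library, from which all values were computed. Its deposited FPKM values, its deposited mean signal per genotype, the authors' log2 fold changes and the authors' p-values and adjusted p-values were not used. Gene length, another column of the deposited table, served for levels per kilobase.

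Genes were matched by symbol. *Adgre1* is listed under its older symbol *Emr1*, and the identifier given for *Lyz2* differs from that in GENCODE M21, so identifiers matched for 9 of 10 genes and positions overlapped for 10 of 10. Totals of 21040536 to 23986458 counts per library make 1 read about as informative in each, and the spread between libraries, not counting error, limits most comparisons. The test was that of edgeR 4.0.16 (R 4.3.3), with filterByExpr on genotype, TMM normalization, and the quasi-likelihood test with robust estimation, mutant against control, Benjamini-Hochberg adjusted over 14990 genes. The fit was tested on simulated data. The SE was derived from the log2 fold change and the F statistic. CPM use TMM-normalized library sizes. Libraries of a genotype differed by more than sampling noise in all pairs (chi-square per degree of freedom from 13.8 to 72.0), so none was counted as a duplicate. Intervals are exact (SciPy 1.17.1), at the 95% level. The *Lyz1* and *Lyz2* transcripts were aligned with Biopython 1.88, and figures were drawn with Python 3.11.15 and matplotlib 3.10.9.

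The test was repeated with DESeq2 1.42.0, with limma 3.58.1 (voom, quality weights), with upper-quartile or RLE normalization, with a minimum of 10 counts in each library or of 1 count in any, and with each of the 9 libraries left out in turn. For the summed level they were the share of raw totals, both normalizations, the sum without *C1qb*, each library left out and, added after the data were seen, the sum without *Cd68*.

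The 10 genes and the 15 other lists (other resident macrophage, myeloid transcription factor, pan-leukocyte, Fc and TYROBP-coupled, ligand, complement, antigen presentation, neutrophil and monocyte, lymphoid, mast cell, erythroid, endothelium, stroma, ureteric bud and nephron progenitor) were chosen with earlier results of these data known. Besides the 10 genes and *Uqcrq*, the text names the called genes of each list (at most 6), its most abundant gene, the 10 genes most alike over libraries, *Lyz1*, and neighbours within 5000 bases. A few genes that this rule would name are not reported here. *Csf1*, *Ccl2*, *Ccl7*, *Fcgr3*, *Ms4a2*, *Syk* and *Cdh5*, and markers with at most 3 reads in every library, fall partly outside this rule and were named after their values were seen. List genes that could not be matched by symbol were not analysed here.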

Additional observations from a re-analysis of the deposited data

Results flagged for a closer look

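In 10 of 142 groups of libraries examined, 1 library lay farther from the others of its genotype than a limit that chance passes in about 1 of 20 groups, or 7.1 of 142. Among the 10 macrophage transcripts this held for *Lyz2*, where control replicate 76 had 2.45 CPM and the next control library 0.467 CPM. Mutant replicate 77 was high for *Aif1* (8.26 CPM, the next mutant library 2.31), for *Fcgr3* (30.9 CPM, the next 9.30) and for the sum of Fc and TYROBP-coupled receptors and kinases (45.2 CPM, the next 18.1). It was also the library with the most reads on each of the 10 macrophage transcripts. Mutant replicate 75 was high for *Pdgfra* (118 CPM, the next 48.5) and for the sum of complement genes (483 CPM, the next 253). Mutant replicate 78 was high for *Ccl2* (22.1 CPM, the next 4.52) and for the sum of antigen presentation genes (148 CPM, the next 93.7). Mutant replicate 79 was high for the lymphoid sum (2.13 CPM, the next 1.13). Control replicate 72 had 0.117 CPM of *Cd48* while the other controls had 0, which rests on 3 reads.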

How the results depend on the processing

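Fitted in 141 alternatives, the 10 transcripts were lower in mutant cells in 0; 107 kept the side of the threshold, 19 calls were lost and 15 gained. The number called higher was 4; it was 7 with DESeq2, 9 with limma-voom, 1 with no filter beyond 1 count and 1 with at least 10 counts in every library, where only *Cd68* was tested. Leaving out single libraries gave 1 (without mutant replicate 78) to 8 (without mutant replicate 74): 2 without control replicate 71 or 72 or mutant replicate 75, 77 or 79, 3 without control replicate 73 and 6 without control replicate 76. Over all genes, 2225 were called, 4858 with limma-voom, and 1046 (without control replicate 73) to 3136 (without mutant replicate 74) with single libraries left out; control replicates 71 and 72 and mutant replicate 78 gave 1354, 1272 and 1336. The summed level was 9.45-fold higher in mutant cells, between 8.60 (without *C1qb*) and 11.2 (without *Cd68*) in other alternatives and between 6.48 and 14.8 with single libraries left out. With single libraries left out, the log2 fold change of 2 uncalled genes turned: *Cxcl12* ranged from −0.28 to 0.031 (0.031 without control replicate 72, 0.030 without mutant replicate 78) and *Alas2* from −0.35 to 0.0088 (without control replicate 73); the cause was not tested. No paired analysis was possible because control and mutant libraries share no replicate number. Reads in control replicates 71 and 73 were too few to order the 10 transcripts there.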
